A study of Homo sapiens with 17 samples.

Results

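The genes described here are the TAL1 complex of T cell leukaemia: the transcription factor TAL1, its E protein partners TCF3 and TCF12, the LIM-only proteins LMO1 and LMO2, the bridging protein LDB1, the DNA-binding partners GATA3, RUNX1 and MYB, and the inhibitor ID1. They were chosen by name, and all 10 were found among the 25548 gene symbols of the deposited table. Of the 10, 9 had a mean of at least 1 FPKM (sequenced fragments relative to transcript length and library size) and were tested with 12015 genes in all. LMO2 fell under that minimum.

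RNA was sequenced from the established cell line Jurkat, which comes from a human T cell acute lymphoblastic leukaemia (T-ALL), after exposure to ILT3.Fc, a soluble fusion of the inhibitory receptor ILT3 to an antibody Fc fragment. The series title asks for the master regulator of the response. The doses of ILT3.Fc were 0, 12.5 and 25 µg/ml and the times 6, 12 and 24 h, which gives 9 groups. Each group held 2 libraries, apart from the untreated group at 12 h with 1 library, and the groups without ILT3.Fc (0 µg/ml) are called untreated. All groups share the one cell line, with no genetic change between them and no Fc control protein among the groups analysed. The labels do not say whether duplicates were separate cultures, so the spread that enters each p-value is that between these libraries and may be technical.

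TAL1 is a basic helix-loop-helix protein of blood stem cells that normal thymocytes switch off and that many T-ALL cells express again. It pairs with an E protein to bind a short DNA motif, the E-box. LMO1 or LMO2 and LDB1 tie this pair to GATA3, RUNX1 and MYB, and in T-ALL these factors are known to bind their own and each other's enhancers as a core circuit. E proteins drive early T cell genes such as the recombinase and pre-T cell receptor genes, and ID proteins, which lack a DNA-binding region, pair with E proteins and keep them off DNA.

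Total depth is unknown from FPKM, and the relative depth of the libraries lay between 0.685 and 1.0 of the deepest. Sums of FPKM ran from 504362 to 557390. Replicate 1 at 12.5 µg/ml and 6 h stood apart in its relation to gene length (Spearman rho -0.601 across genes). Replicate 2 at 25 µg/ml and 24 h stood apart in its relation to GC content (rho 0.571 across genes). Replicate 2 of the untreated group at 24 h had the lowest rho with GC content of all libraries (-0.376). All 24 h libraries ran in lane 4 and all 12 h libraries in lane 5, while the 6 h replicates were split between the lanes, so lane and time cannot be fully told apart. The T cell markers CD3D, CD3E, CD3G, CD7 and LCK were at 41.4 FPKM or more in every library. The erythroid, megakaryocyte and endothelial markers HBB, PF4 and CDH5 were listed at 0 throughout, and the myeloid markers stayed at or below 0.413 FPKM. CD79A (33.4 to 48.1 FPKM) and PECAM1 (5.003 to 6.209 FPKM) were the exceptions in the B cell and endothelial lists. In bulk RNA, fewer cells expressing a gene and less RNA per cell cannot be told apart.

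Every factor of the complex other than LMO2 was expressed in every library, over a wide range of levels. On the FPKM scale, MYB was the most abundant at a mean of 150.6 FPKM over the 17 libraries (142.9 to 158.3), above 97.8% of all symbols. TCF12 (mean 102.7, range 87.2 to 114.3), RUNX1 (mean 101.7, range 90.8 to 113.0) and TCF3 (mean 94.8, range 90.0 to 100.3) came next, and the ranges of neighbours in this order overlapped. TAL1 followed at a mean of 63.4 FPKM (56.7 to 68.2) and LDB1 at 42.5 FPKM (37.4 to 45.6). Neither range overlapped with its neighbours. GATA3 (mean 21.1, range 19.4 to 24.2) and ID1 (mean 20.8, range 15.7 to 27.9) overlapped with each other. LMO1 was far lower at a mean of 3.08 FPKM (2.12 to 4.04), and LMO2 lay between 0 and 0.188 FPKM, with 4 libraries listed at 0. Of the 2 LIM-only proteins of the complex, LMO1 was thus the one with a mean above the test's minimum.

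**Figure D1:**
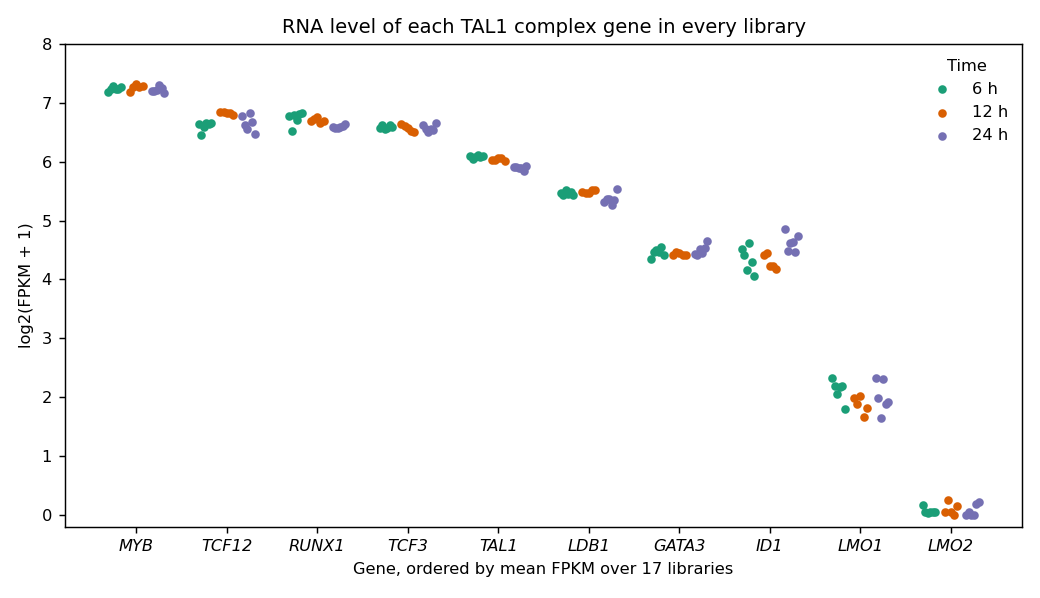
Level of each of the 10 genes as log2(FPKM + 1) on the y axis, with genes on the x axis in order of mean FPKM. Each point is 1 of 17 libraries, coloured by time. MYB is highest, LMO2 lies near 0, and among the 9 genes above the test's minimum the widest spread relative to level is seen for ID1 and LMO1, whose highest library was 1.78 and 1.91 times the lowest.

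Most of the complex varied little between libraries. The highest library was 1.11 times the lowest for MYB and 1.11 times for TCF3, and between 1.203 and 1.311 times for TAL1, LDB1, RUNX1, GATA3 and TCF12. The standard deviation between duplicates on the log2(FPKM + 1) scale was 0.026 for TAL1 and 0.13 for LMO1. The relatives of TAL1, GATA3 and LDB1 on the list were low: the TAL1 paralogs LYL1 and TAL2 had means of 0.443 and 0.646 FPKM, GATA1 and GATA2 0.0441 and 0.451 FPKM, and LDB2 was listed at 0 in every library. Of the LMO1 relatives, LMO3 was listed at 0 in every library and LMO4 had a mean of 5.38 FPKM. The relatives of RUNX1 and ID1 were partly higher, with means of 5.51 FPKM for RUNX2, 5.55 FPKM for RUNX3 and 31.5 FPKM for ID3.

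Differences were tested with limma on log2(FPKM + 1), on which the change of a low gene is understated. A gene was called at a Benjamini-Hochberg adjusted p under 0.05 over all genes tested. Over the 3 times together, 25 against 0 µg/ml gave calls for 2 of the 9 tested members, LMO1 and ID1, both lower. Over all genes, 9.47% were called in that comparison. For 25 against 0 µg/ml at 24 h, again 2 of 9 were called lower, LMO1 and TCF12, against 16.5% of all genes. With 9 members tested, these counts do not set the members apart from all genes. The median difference of the 9 members at 24 h was -0.0082, against 0.036 for all genes.

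No member was called by limma for 25 against 0 µg/ml at 6 h, where 0.225% of all genes were called, and 2 of 9, ID1 and LMO1, had an unadjusted p under 0.05, against 10.3% of all genes. None was called for 25 against 0 µg/ml at 12 h, where 0.0499% of all genes were called, and 1 of 9, MYB, had an unadjusted p under 0.05, against 8.61% of all genes. At 12.5 against 0 µg/ml over all times limma called 0 of 9, against 0.283% of all genes, with 3 of 9 (LMO1, ID1 and TCF12) at an unadjusted p under 0.05, against 10.9% of all genes. Untreated cells at 24 h against untreated cells at 6 h gave 1 call of 9, TAL1, lower, against 2.33% of all genes. A test of whether the effect of 25 µg/ml differed between 24 h and 6 h called 0 of 9, against 3.3% of all genes, with 3 of 9 (TCF12, ID1 and MYB) at an unadjusted p under 0.05, against 21.7% of all genes. The comparisons at 25 and 12.5 µg/ml share their untreated libraries, so their values are given side by side and are not independent. Groups of 1 or 2 libraries can easily lie apart by chance, and the share of all genes that did so was not computed. Statements on overlap between groups are therefore descriptions only.

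**Figure D2:**
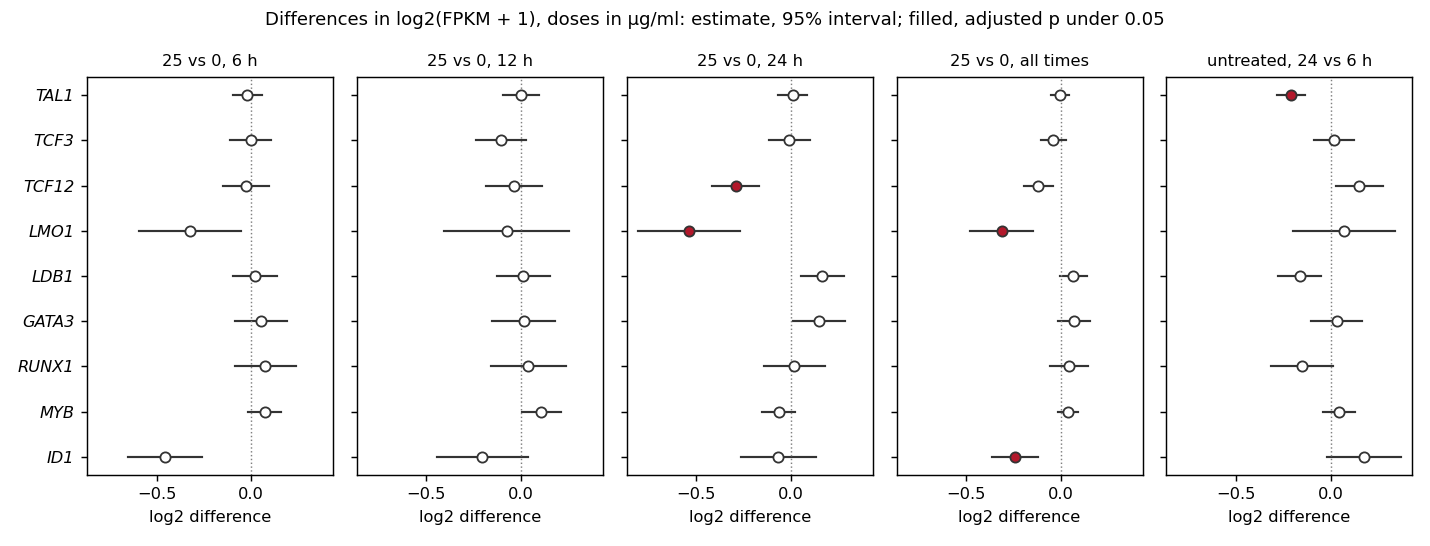
Difference in log2(FPKM + 1) on the x axis for the 9 tested members (y axis) in 5 comparisons. Points are limma estimates, lines are 95% intervals, and filled points passed the adjusted threshold: TCF12 and LMO1 at 24 h, LMO1 and ID1 over all times, and TAL1 for untreated cells at 24 h against 6 h.

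TAL1, the founding member of the complex, separated by time in culture, and none of its differences by dose passed. The untreated libraries stood at 67.6 and 68.2 FPKM at 6 h, 64.6 FPKM at 12 h, and 58.8 and 58.4 FPKM at 24 h. At 25 µg/ml the values were 66.6 and 67.4 FPKM at 6 h, 65.7 and 63.6 FPKM at 12 h, and 58.3 and 59.7 FPKM at 24 h. At 12.5 µg/ml they were 64.9 and 66.8 FPKM at 6 h, 64.7 and 65.9 FPKM at 12 h, and 56.7 and 59.4 FPKM at 24 h. All 6 libraries at 24 h, whatever the dose, lay below all 11 libraries at 6 and 12 h, while the 6 h and 12 h libraries overlapped.

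In untreated cells TAL1 fell by 0.21 on the log2 scale from 6 to 24 h (SE 0.035, limma adjusted p = 0.0157). For 25 against 0 µg/ml over all times its difference was -0.0032 with a 95% interval from -0.051 to 0.044, and at 24 h it was 0.0093 (interval -0.067 to 0.086). Treated and untreated libraries overlapped at 12 and 24 h, and at 6 h both treated libraries at 25 µg/ml were lower than both untreated ones (difference -0.020, 95% interval -0.096 to 0.057). Within lane 4 the difference between untreated 24 h and 6 h libraries was -0.20 (adjusted p = 0.282 with fewer libraries). Leaving out any 1 of the 4 untreated libraries at 6 or 24 h ended the call, with adjusted p-values of 0.08 without replicate 1 and 0.109 without replicate 2 at 24 h, and 0.097 without replicate 1 and 0.125 without replicate 2 at 6 h.

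The stretch before the RefSeq start of TAL1 is shown because the complex is known to act on E-boxes and GATA motifs, and that of LMO1 because its RNA passed the test at 25 µg/ml. Both are the 250 bases before the start (RefSeq, GRCh38.p14, 5′ to 3′ on the minus strand, outside annotated exons), with matches to the E-box CANNTG and the GATA motif GATAA on either strand in capitals. The table holds 2 windows for TAL1, and the one at the start farther upstream is printed. It is chr1:47232336-47232585, and the LMO1 window is chr11:8268788-8269037.
TAL1: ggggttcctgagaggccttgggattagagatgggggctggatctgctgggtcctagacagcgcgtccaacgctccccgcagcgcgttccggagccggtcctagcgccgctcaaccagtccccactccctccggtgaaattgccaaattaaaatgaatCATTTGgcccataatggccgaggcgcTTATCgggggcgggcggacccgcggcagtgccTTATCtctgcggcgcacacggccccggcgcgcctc
LMO1: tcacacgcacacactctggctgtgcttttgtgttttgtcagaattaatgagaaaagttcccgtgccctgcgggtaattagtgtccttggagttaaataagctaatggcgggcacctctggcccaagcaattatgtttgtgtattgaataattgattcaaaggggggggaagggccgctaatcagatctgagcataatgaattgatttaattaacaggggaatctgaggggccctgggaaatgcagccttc
The printed TAL1 window held 1 E-box, 93 bases before the start, and 2 GATA matches, 67 and 35 bases before it. The other TAL1 window, chr1:47231716-47231965, held neither, and had 3 matches to the RUNX motif TGTGGT and 2 to the MYB motif AACNG. The LMO1 window held no E-box or GATA match, and 1 match to the MYB motif AACNG, 39 bases before the start. Of 35116 such windows in the table, 61.8% held a CANNTG, 20.4% a GATAA, 11% a TGTGGT and 70.6% an AACNG. A match is a description of the letters, not a bound site. A window was found for 9 of the 10 members, and not for LMO2.

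The E proteins TCF3 and TCF12 form the DNA-binding pair with TAL1. TCF12 stood at 108.3 and 112.9 FPKM in untreated cells at 24 h, at 98.2 and 101.7 FPKM with 12.5 µg/ml, and at 92.9 and 87.4 FPKM with 25 µg/ml. The 3 doses did not overlap at 24 h and were ordered by dose. TCF12 fell by 0.29 on the log2 scale with 25 µg/ml at 24 h (SE 0.055, limma adjusted p = 0.00679).

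At 6 h TCF12 was at 99.0 and 99.7 FPKM without ILT3.Fc and at 95.6 and 99.6 FPKM with 25 µg/ml, so the groups overlapped (difference -0.026). At 12 h it was at 114.3 FPKM in the untreated library and at 112.6 and 110.0 FPKM with 25 µg/ml (difference -0.038). The 12.5 µg/ml libraries were at 87.2 and 99.1 FPKM at 6 h and at 113.7 and 113.0 FPKM at 12 h. The lowest of these, replicate 1 at 12.5 µg/ml and 6 h, is the library that stood apart by gene length. All 5 libraries at 12 h, which ran in lane 5, lay at or above 110.0 FPKM, and all 6 at 6 h at or below 99.7 FPKM. Within lane 5, the 3 libraries at 6 h lay between 99.1 and 99.7 FPKM and the 5 at 12 h between 110.0 and 114.3 FPKM, with no overlap.

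Over all times the TCF12 difference at 25 µg/ml was -0.12 (adjusted p = 0.0541), and the difference between the effects at 24 and 6 h was -0.27 (adjusted p = 0.0855). Neither passed, and both passed with a correction of each library for GC content and length (-0.13, adjusted p = 2.76e-04, and -0.21, adjusted p = 0.0109). The 24 h call held within lane 4, and was lost without replicate 2 of the untreated group (adjusted p = 0.0661) or replicate 2 of the 25 µg/ml group (adjusted p = 0.062). TCF12 was not called at 24 h when only the groups compared entered the fit (adjusted p = 0.0914).

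TCF3, the other E protein, was not called in any comparison by dose without a correction for GC content and length. At 12 h it was at 99.0 FPKM in the untreated library and at 94.0 and 90.0 FPKM with 25 µg/ml, with no overlap (difference -0.10, adjusted p = 0.712). At 24 h it was at 97.8 and 93.6 FPKM in untreated cells and at 90.3 and 100.3 FPKM with 25 µg/ml, with overlap (difference -0.0082, 95% interval -0.117 to 0.10). The higher treated library is replicate 2, the one that stood apart by GC content. After the GC and length correction the difference at 24 h was -0.17 (adjusted p = 0.00559) and that over all times -0.073 (adjusted p = 0.0297), so this gene is called or not according to that step.

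Among the LIM-only and bridging proteins, LMO1 was the one called, over all times and at 24 h. In untreated cells LMO1 stood at 4.02 and 3.52 FPKM at 6 h, 2.97 FPKM at 12 h, and 4.04 and 3.96 FPKM at 24 h. With 25 µg/ml it stood at 3.14 and 2.50 FPKM at 6 h, 3.04 and 2.51 FPKM at 12 h, and 2.12 and 2.80 FPKM at 24 h. With 12.5 µg/ml the values were 3.57 and 3.58 FPKM at 6 h, 2.71 and 2.17 FPKM at 12 h, and 2.99 and 2.68 FPKM at 24 h. Both doses lay below the untreated libraries at 24 h, only the higher dose did at 6 h, and at 12 h the 25 µg/ml libraries lay on either side of the one untreated library.

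LMO1 fell by 0.54 on the log2 scale with 25 µg/ml at 24 h (SE 0.123, limma adjusted p = 0.0148) and by 0.31 over all times (SE 0.076, adjusted p = 0.0289). At 6 h the difference was -0.32 (adjusted p = 0.397), at 12 h -0.075 (adjusted p = 0.959), and with 12.5 µg/ml over all times -0.22 (adjusted p = 0.311). The effects at 24 and 6 h were not shown to differ (difference -0.21, adjusted p = 0.509).

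The LMO1 calls sit close to the threshold. At 24 h the call was lost within lane 4 (-0.54) and when only the groups compared entered the limma fit (adjusted p = 0.101). Without a filter on low values the call over all times was lost (adjusted p = 0.0559). The call over all times was lost within lane 4 (-0.41, adjusted p = 0.161) and lane 5 (-0.22, adjusted p = 0.338), without the 24 h libraries (-0.20, adjusted p = 0.399), and without any 1 of 5 libraries: untreated 24 h replicates 1 and 2, untreated 6 h replicate 1, and replicate 2 at 25 µg/ml at 6 h and at 12 h (adjusted p from 0.062 to 0.0765). The 24 h call was lost without either untreated 24 h replicate (0.0654 without replicate 1, 0.0848 without replicate 2) or without replicate 1 at 25 µg/ml (0.0731).

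LDB1, which bridges the LIM-only protein to the rest of the complex, was at 39.0 and 37.4 FPKM in untreated cells at 24 h and at 40.5 and 45.6 FPKM with 25 µg/ml. The groups did not overlap, and the difference of 0.17 did not pass (adjusted p = 0.0513). It passed with a minimum mean of 5 FPKM (adjusted p = 0.0464), without replicate 1 or 2 of 12.5 µg/ml at 6 h (adjusted p = 0.0389 and 0.039), and without replicate 1 of 25 µg/ml at 24 h (0.25, adjusted p = 0.00896). Without that last library LDB1 also passed over all times (0.094, adjusted p = 0.0463). The highest library is again replicate 2 at 25 µg/ml, which stood apart by GC content, and after the GC and length correction the difference was 0.03 (adjusted p = 0.704). At 6 h LDB1 was at 43.1 and 42.8 FPKM without ILT3.Fc and at 44.6 and 42.5 FPKM with 25 µg/ml, and at 12 h at 43.7 FPKM against 43.4 and 44.6 FPKM. Both of those comparisons overlapped.

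LMO2 did not reach the test's minimum in any library. Its values at 24 h were 0 and 0 FPKM in untreated cells and 0 and 0.16 FPKM with 25 µg/ml, and the highest of all was 0.188 FPKM at 12.5 µg/ml and 12 h. No fold is given at these levels.

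GATA3, a zinc finger factor of the T cell lineage, stood at 20.6 and 20.8 FPKM in untreated cells at 24 h and at 21.9 and 24.2 FPKM with 25 µg/ml. The groups did not overlap, and the difference of 0.15 did not pass (limma adjusted p = 0.127). At 6 h the groups overlapped, with 19.4 and 21.1 FPKM untreated and 21.5 and 20.5 FPKM at 25 µg/ml. Over all times the difference was 0.072 (95% interval -0.014 to 0.157).

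RUNX1, the DNA-binding subunit of core binding factor, had its lowest median at 24 h. Its 24 h libraries lay between 94.2 and 98.8 FPKM with a median of 95.5, and the 12 h libraries between 99.9 and 107.3 FPKM with a median of 102.0. The 6 h libraries lay between 90.8 and 113.0 FPKM with a median of 109.5. The lowest 6 h value was again replicate 1 at 12.5 µg/ml, and the other 5 were at 103.9 FPKM or more. The difference between untreated cells at 24 and 6 h was -0.15 (adjusted p = 0.301), which passed without either 12.5 µg/ml library at 6 h (adjusted p = 0.0395 without replicate 1 and 0.0397 without replicate 2). For 25 against 0 µg/ml over all times the RUNX1 difference was 0.044 (95% interval -0.057 to 0.145). At 6 h it was at 108.4 and 103.9 FPKM untreated and at 110.6 and 113.0 FPKM with 25 µg/ml. At 12 h it was at 101.9 FPKM untreated and at 107.3 and 102.0 FPKM with 25 µg/ml. The libraries at 25 µg/ml were above both untreated ones at 6 h and above the 1 untreated library at 12 h. In that 12 h comparison the nearer value was 102.0 FPKM against 101.9 FPKM. At 24 h the treated and untreated libraries overlapped. No difference passed (limma adjusted p = 0.793 at 6 h, 0.967 at 12 h and 0.888 at 24 h).

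MYB, a proto-oncogene of blood progenitors, had with TCF3 the lowest ratio of highest to lowest library among the tested members. Its level at 6 h was 145.2 and 149.4 FPKM in untreated cells and 155.8 and 153.7 FPKM with 25 µg/ml. At 12 h it was 145.1 FPKM untreated and 158.3 and 154.5 FPKM with 25 µg/ml. At 24 h it was 146.6 and 157.3 FPKM untreated and 147.3 and 142.9 FPKM with 25 µg/ml. The libraries at 25 µg/ml were above both untreated ones at 6 h and above the 1 untreated library at 12 h. At 24 h the treated and untreated libraries overlapped. No difference passed (0.071 at 6 h, 0.11 at 12 h and -0.065 at 24 h, with limma adjusted p-values of 0.587, 0.565 and 0.284).

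ID1, the inhibitor of E proteins and a known BMP response gene, was called over all times, and its doses lay farthest apart at 6 h. At 6 h ID1 stood at 21.8 and 23.5 FPKM in untreated cells, at 20.3 and 18.6 FPKM with 12.5 µg/ml, and at 16.9 and 15.7 FPKM with 25 µg/ml. The 3 doses did not overlap at 6 h and were ordered by dose. At 12 h it was at 20.2 FPKM in the untreated library, at 20.9 and 17.8 FPKM with 12.5 µg/ml, and at 17.7 and 17.2 FPKM with 25 µg/ml. At 24 h it was at 27.9 and 23.8 FPKM in untreated cells, 21.3 and 21.1 FPKM with 12.5 µg/ml, and 23.5 and 25.7 FPKM with 25 µg/ml, where the higher dose overlapped with the untreated libraries and the lower dose did not.

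Over all times ID1 fell by 0.24 on the log2 scale with 25 µg/ml (SE 0.056, limma adjusted p = 0.0226). The difference was -0.45 at 6 h (adjusted p = 0.0953), -0.21 at 12 h (adjusted p = 0.675) and -0.065 at 24 h (adjusted p = 0.657). The difference between the effects at 24 and 6 h was 0.39 (adjusted p = 0.111) and did not pass. With 12.5 µg/ml over all times the value was -0.18 (adjusted p = 0.235). The call at 25 µg/ml was lost within lane 4 (-0.21, adjusted p = 0.252) and lane 5 (-0.38, adjusted p = 0.153), without the 24 h libraries (-0.33, adjusted p = 0.096), and without any 1 of 4 libraries: untreated 24 h replicate 1 (0.0511), untreated 6 h replicate 2 (0.0643), and replicate 2 at 25 µg/ml at 6 h (0.0627) and 12 h (0.0587).

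**Figure D3:**
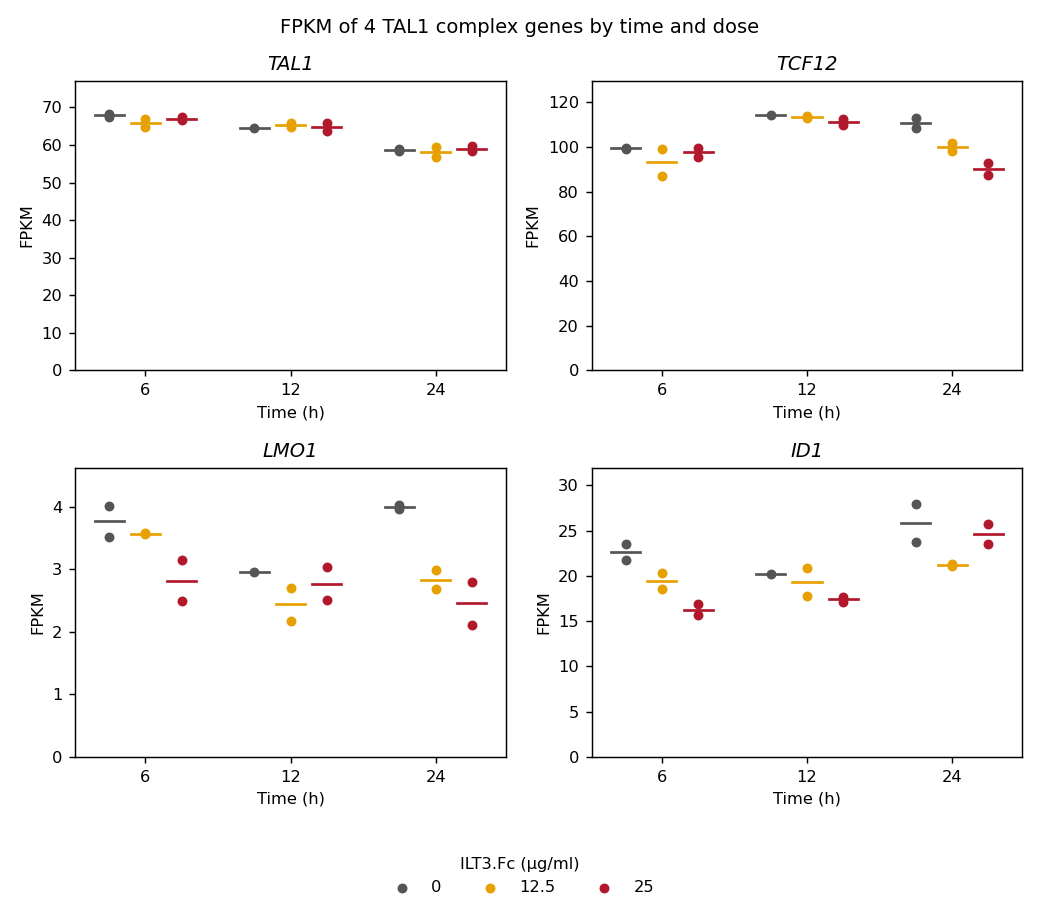
FPKM (y axis, from 0) by time in hours (x axis) for TAL1, TCF12, LMO1 and ID1. Points are libraries, short lines are group means and colours are doses in µg/ml. TAL1 separates 24 h from the earlier times. At 24 h TCF12 separates all 3 doses and LMO1 separates untreated from treated libraries, while its 12.5 and 25 µg/ml libraries overlap, and ID1 separates by dose at 6 h.

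The tested genes whose log2(FPKM + 1) most resembled that of a member over the 17 libraries were ARHGAP33 (Pearson's r = 0.949), RGL2 (0.938) and LOC440104 (0.937) for TAL1. ARHGAP33 lay between 6.05 and 6.99 FPKM at 24 h and between 9.66 and 11.9 FPKM at 6 h, so it too was lower at 24 h at every dose. For LMO1 they were IER3 (0.873), HNRNPA0 (0.839) and HYAL3 (0.831). For ID1 they were ID3 (0.918), FZD2 (0.900) and COG1 (0.898). These values are the highest of all genes tested and share the same libraries, lanes and doses, so they are descriptions only.

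ID3, a related E protein inhibitor, stood at 33.6 and 32.1 FPKM in untreated cells at 6 h and at 26.3 and 25.9 FPKM with 25 µg/ml, with no overlap (difference -0.32, limma adjusted p = 0.128). At 24 h it was at 36.5 and 35.1 FPKM against 33.4 and 37.2 FPKM, with overlap. Of the BMP and SMAD response list, 3 of 7 genes were tested (ID2, ID3 and SMAD6), and limma called 0 of 3 for 25 against 0 µg/ml over all times, with 1 of 3 at an unadjusted p under 0.05, against 25.9% of all genes.

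Of 17 partners, paralogs and inhibitors, 10 were tested, and 1 was called lower with 25 µg/ml over all times: CBFB, the non-DNA-binding partner of RUNX1. Over all genes, 9.47% were called in that comparison in either direction. CBFB was at 74.5 and 79.6 FPKM in untreated cells at 24 h and at 67.6 and 65.3 FPKM with 25 µg/ml, and it fell by 0.13 over all times (adjusted p = 0.026) and by 0.21 at 24 h (adjusted p = 0.016). At 24 h 2 of 10 were called lower, against 16.5% of all genes called in either direction. These were CBFB and SSBP2, a protein that binds and stabilises LDB1. SSBP2 was at 96.0 and 95.4 FPKM in untreated cells, at 86.8 and 89.2 FPKM with 12.5 µg/ml and at 82.2 and 79.0 FPKM with 25 µg/ml, with no overlap between doses. SSBP2 fell by 0.25 at 24 h (adjusted p = 0.00274), a call that was lost after the GC and length correction (-0.20, adjusted p = 0.132). The 24 h call of CBFB was lost without 2 of 17 libraries, replicate 2 of the untreated and of the 25 µg/ml group at 24 h (highest adjusted p = 0.140). The 24 h call of CBFB was also lost within lane 4 (-0.21). Its call over all times was lost without any 1 of 5 libraries, within lane 4 (-0.16), within lane 5 (-0.081) and without the 24 h libraries (-0.086). Quantile normalization ended that call too (limma adjusted p = 0.0764). SSBP2 kept its 24 h call without each of the 17. When only the groups compared entered the fit, CBFB and SSBP2 were not called at 24 h (adjusted p = 0.109 and 0.0914).

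Of 19 other T-ALL and thymocyte transcription factors, 13 were tested and 0 were called by limma over all times, with 2 at an unadjusted p under 0.05, against 25.9% of all genes. At 24 h GFI1, a repressor, rose by 0.20 (adjusted p = 0.035) and ELF1, an ETS factor, fell by 0.22 (adjusted p = 0.0227), while the other 11 did not pass. Of 12 corepressors and coactivators, all tested, 0 were called over all times (2 at an unadjusted p under 0.05) and 1 at 24 h. The gene called, the histone methyltransferase SUV39H1, rose by 0.22 (limma adjusted p = 0.0359). Beside both lists, the share of all genes called was 9.47% over all times and 16.5% at 24 h. The differences of GFI1 and SUV39H1 were 0.095 and 0.09 after the GC and length correction and did not pass. Both calls were also lost with libraries centred on their medians (limma adjusted p = 0.0704 and 0.103) and with quantile normalization (0.0767 and 0.0891). They were lost too without a filter on low values. All 3 calls, with that of ELF1, were lost within lane 4, without the 12 h libraries and when only the groups compared entered the fit. Leaving out single libraries ended the call of GFI1 in 5 of 17 cases, of ELF1 in 3 of 17 and of SUV39H1 in 6 of 17.

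Of 8 genes known as activated by TAL1 in T-ALL, 6 were tested. With 25 µg/ml over all times 2 were called higher, TRIB2 and ALDH1A2, and 1 lower, against 9.47% of all genes called in either direction. At 24 h 1 was called higher, TRIB2, and 1 lower, against 16.5% of all genes. The 24 h call of TRIB2 was lost in 9 of 30 alternative fits. Among them were quantile normalization (limma adjusted p = 0.0638), the GC and length correction (0.0767) and only the groups compared (0.199). No difference of TAL1 by dose passed. TRIB2, a pseudokinase, was at 12.9 and 13.9 FPKM in untreated cells at 24 h and at 14.6 and 15.6 FPKM with 25 µg/ml, and at 6 h at 14.1 and 13.9 FPKM against 15.4 and 15.6 FPKM. At 12 h TRIB2 was at 14.2 FPKM in the 1 untreated library and at 15.2 and 15.1 FPKM with 25 µg/ml. Treated and untreated libraries did not overlap at 6, 12 or 24 h, and TRIB2 rose by 0.13 over all times (SE 0.027, adjusted p = 0.0156). ALDH1A2, a retinaldehyde dehydrogenase, rose by 0.089 over all times (adjusted p = 0.048), a call lost in 14 of 17 fits without 1 library (highest adjusted p = 0.205). The call of TRIB2 over all times held without each of the 17 libraries in turn. It was lost within lane 4 and within lane 5 (0.14 and 0.12, adjusted p = 0.247 and 0.181), after removal of the 24 h libraries (0.11, adjusted p = 0.154) or of the 12 h ones (0.15, adjusted p = 0.0512).

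Of 7 genes known as activated by E proteins, 6 were tested. With 25 µg/ml over all times 1 was called higher and 2 lower, PTCRA and RAG1, against 9.47% of all genes called in either direction. At 24 h 2 were called higher, GFI1 among them, and 2 lower, PTCRA and RAG1, against 16.5% of all genes. PTCRA, the pre-T cell receptor alpha chain, was at 14.2 and 13.0 FPKM in untreated cells at 24 h, at 8.92 and 9.21 FPKM with 12.5 µg/ml and at 8.95 and 10.5 FPKM with 25 µg/ml. At 6 h it was at 7.49 and 8.14 FPKM untreated and at 5.11 and 5.59 FPKM with 25 µg/ml. Both doses lay below the untreated libraries at 24 h, and the higher dose did so at 6 h. PTCRA fell by 0.51 over all times with 25 µg/ml (SE 0.066, limma adjusted p = 0.00138), and by 0.45 at 24 h (adjusted p = 0.0173).

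RAG1, a subunit of the recombinase, was at 91.8 and 92.7 FPKM in untreated cells at 24 h and at 74.9 and 72.2 FPKM with 25 µg/ml, and fell by 0.32 at 24 h (adjusted p = 0.0253). With time alone, in untreated cells at 24 h against 6 h, 3 of the 6 tested genes of this list were called, all higher. The share of all genes called there in either direction was 2.33%. PTCRA, RAG1 and RAG2 rose by 0.73, 0.39 and 0.29 (limma adjusted p = 0.0106, 0.0398 and 0.0114). Within lane 4, with fewer libraries, the differences were 0.78, 0.38 and 0.29 and the calls were lost. They were also lost when only the groups compared entered the limma fit (adjusted p = 0.0939 for each). TAL1 had the opposite sign in the same libraries, and a relation between these changes was not tested.

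Of these calls, that of PTCRA over all times held without each library in turn. It was lost within lane 4 (-0.46), within lane 5 (-0.54) and without the 24 h libraries (-0.54). When only the groups compared entered the limma fit, PTCRA and RAG1 were not called at 24 h (adjusted p = 0.102 and 0.0761). The call of RAG1 over all times (-0.18, adjusted p = 0.0499) was lost without any 1 of 15 libraries. At 24 h RAG1 lost its call without any 1 of the 4 libraries compared (highest adjusted p = 0.148), and PTCRA without 3 of them (highest adjusted p = 0.0951). With time alone, PTCRA and RAG2 lost theirs without any 1 of the 4 untreated libraries at 6 and 24 h, and RAG1 without any 1 of 12 libraries (highest adjusted p = 0.214).

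Beside these 24 h results, the NK cell marker NKG7 rose by 0.49 with 25 µg/ml at 24 h (adjusted p = 0.0341) and fell by 0.70 in untreated cells from 6 to 24 h (adjusted p = 0.0271). The summed level of the 4 NK markers lay between 3.87 and 7.63 FPKM in untreated libraries and between 5.25 and 6.36 FPKM at 25 µg/ml. Only NKG7 of the 4 reached 1 FPKM, and NCAM1, KLRD1 and GNLY stayed at or below 0.438 FPKM. Its part in the results was not tested.

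**Figure D4:**
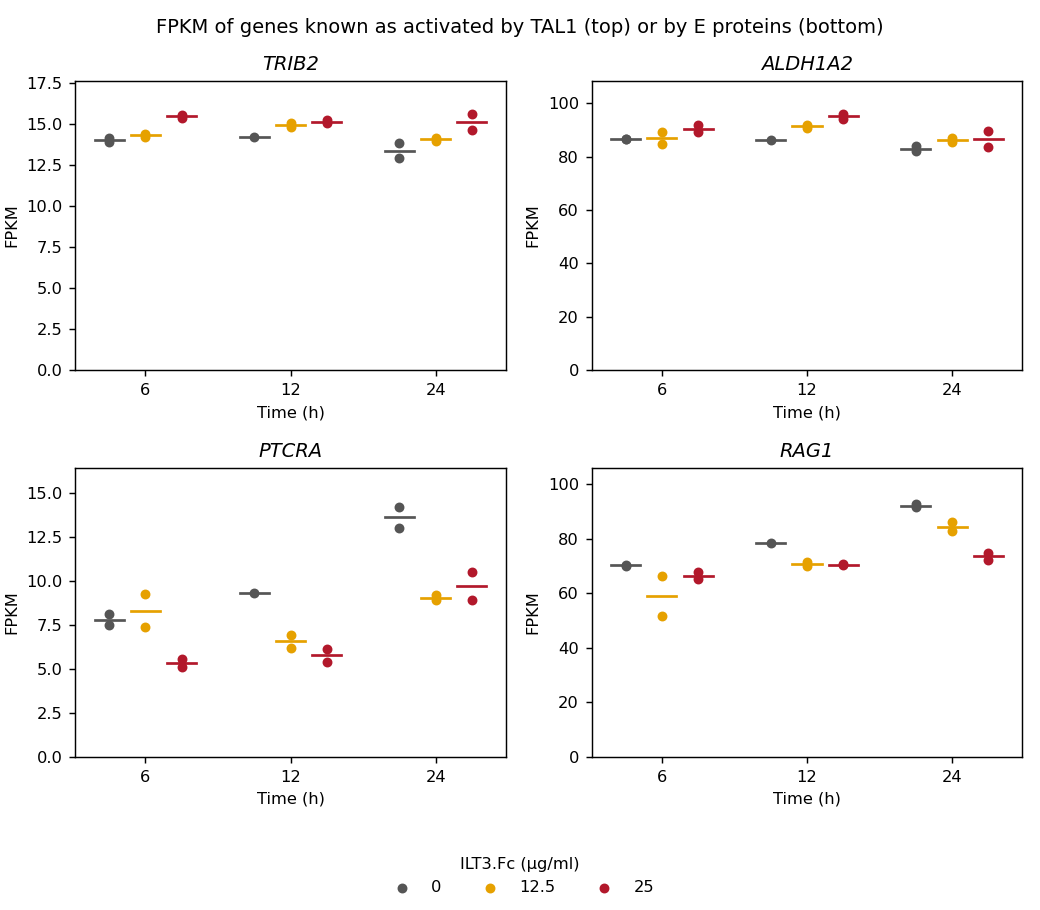
FPKM (y axis, from 0) by time in hours (x axis) for genes known as activated by TAL1 (top row) and by E proteins (bottom row). Points are libraries, short lines are group means and colours are doses in µg/ml. At 24 h PTCRA and RAG1 lie lower with 25 µg/ml than in untreated cells. TRIB2 lies higher at 6, 12 and 24 h, with 1 untreated library at 12 h.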

How the data were processed

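The authors deposited 1 table of FPKM values with a column for each library. Per the labels' protocols, a TruSeq kit was used on poly-A RNA. The submitters' processing notes name TopHat2 2.1.0, and the quantifier was not given in the sources used here, nor were the build or annotation. For 45 repeated symbols, none a member, 1 line was kept. Relative depth came from the low values of 11910 genes (tolerance 0.03 in log2).

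Group means of log2(FPKM + 1) for the 9 groups were fitted with limma 3.58.1 (R 4.3.3), with 8 residual degrees of freedom, an empirical Bayes trend and two-sided tests. The 12015 genes tested had a mean of 1 FPKM or more. The single untreated library at 12 h is assumed to vary like the other groups. The fit was tested on simulated data with independent noise for each library. Those data held no relation to GC content, length or lane, so they cannot speak to calls that move with these. All 10 members are named, with list genes called in any comparison, at most 4 of a list in a comparison, and the 3 genes most like TAL1, LMO1 and ID1. The counts include list genes whose own values are not reported here. The members and lists were chosen with earlier results of these data known. For the correction, GENCODE v29 gave GC content and length of 85% of tested genes and all members. Alternatives changed the pseudocount, filter, scaling, variance model, lanes, libraries and replicate block.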

Additional observations from a re-analysis of the deposited data

Results flagged for a closer look

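By a limma test of the difference itself, the effect of 25 µg/ml was called as different between 24 h and 6 h for the LDB1-binding protein SSBP2. It was the 1 gene called of the 10 tested partners, paralogs and inhibitors, against 3.3% of all genes. The difference was -0.24 (adjusted p = 0.0427), a call lost in 13 of 17 fits without 1 library (highest adjusted p = 0.145) and after the GC and length correction (-0.13, adjusted p = 0.619). In all, 21 of 30 alternative fits lost the call. Among them were the replicate block (limma adjusted p = 0.0524), only the groups compared (0.0586) and the fit without the 12 h libraries (0.104). Groups of 2 are too small for a check of single libraries within a group.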

How the results depend on the processing

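For 25 against 0 µg/ml over all times, 2 members were called. Without a filter on low values, and with a minimum mean of 5 FPKM, which leaves LMO1 untested, 1 was called. Within lane 4, within lane 5 and without the 24 h libraries 0 were called by limma. With the GC and length correction 4 were called (ID1, LMO1, TCF12 and TCF3), also with the replicate block added. Without 1 library the count ran from 0 to 4. At 12.5 µg/ml the correction gave 1 call (TCF12) and leaving out a library 0 to 1. At 24 h lane 4 alone gave 1 call (TCF12), only the groups compared 0, and leaving out a library 0 to 3. For untreated 24 h against 6 h, lane 4 alone, leaving out the 12 h libraries and fitting only the groups compared each gave 0, the correction gave 2 (TAL1 and TCF12) with or without the block, and leaving out a library 0 to 3. For the difference between times the correction gave 2 (TCF12 and TCF3) with or without the block, and leaving out a library 0 to 1. The cause was not tested.

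Deviations of same-numbered libraries correlated between -0.183 and 0.128 over 28 pairs of groups, so little of the deviation was shared by number. The pairs mix times and lanes, and pairing within a time was not tested on its own. The replicate block alone left the members called at 2, 0, 0, 0, 2, 1 and 0 in the 7 comparisons. Counts over all genes, which set the background, moved from 1138 to between 8 (lane 5 alone) and 1815 (correction) over all times, and to between 613 (without untreated 6 h replicate 2) and 2034 (without 12.5 µg/ml 6 h replicate 1) without 1 library. At 24 h they moved from 1978 to between 12 (only the groups compared) and 2085, and to between 483 and 3071 without 1 library. The other counts over all genes ran from 2 to 214 at 12.5 µg/ml, 0 to 100 at 6 h, 4 to 67 at 12 h, 2 to 945 with time and 10 to 412 for the difference between times, and from 4 to 895, 3 to 93, 4 to 39, 8 to 796 and 5 to 1162 without 1 library. FPKM gives no read counts, so counting error cannot be stated for low genes such as LMO1.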
